A study of Homo sapiens with 16 samples.

Results

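The transcription factors FOXA1, HOXB13, GATA2, GRHL2, SPDEF and CREB3L4, the ETS factor ETV1 and the glucocorticoid receptor NR3C1 were followed in LNCaP cells after SLIRP knockdown with and without androgen. They were chosen by name, as 8 of the 20502 entries with a gene symbol in the deposited table, as factors of prostate luminal cells and of their hormone response, and all 8 were listed. The choice was made with earlier results of these data known, so their contrast with all genes is descriptive only. LNCaP, an established androgen-responsive prostate cancer cell line grown from a lymph node metastasis, was transfected for a day with nonsense siRNA (NS) or with a pool of siRNAs against SLIRP, an RNA-binding protein studied as a coregulator of hormone-driven transcription. The cells were then kept for another day in serum-free medium with ethanol vehicle or with the androgen dihydrotestosterone (DHT). This gave 4 groups of 4 RNA-seq libraries each. In vehicle these were NS-Veh and SLIRP-Veh, and with hormone at 1 nM they were NS-1nM DHT and SLIRP-1nM DHT, so that all cells carried an siRNA and lacked serum. The control was a single nonsense sequence and the knockdown a single pool, so an effect of losing SLIRP and any other effect of the pool cannot be told apart.

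FOXA1 and GATA2 are pioneer factors that open chromatin at many enhancers used in the prostate. HOXB13, a homeobox factor of the prostate, and GRHL2, a grainyhead factor of epithelia, bind at many of the same enhancers, and SPDEF is an ETS factor of luminal and secretory epithelium. CREB3L4, also called AIbZIP, is a membrane-bound bZIP factor of the secretory pathway that is rich in prostate and responds to androgen. ETV1 is an ETS factor that is switched on by rearrangement in some prostate cancers, LNCaP among them, and NR3C1 encodes a receptor that binds DNA as a dimer once loaded with hormone.

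With SLIRP siRNA, 6 of the 7 members with enough counts to test were called lower and none was called higher. Over all 16 libraries the largest falls were those of HOXB13 (to 64.6% of the NS level), SPDEF (65.8%) and CREB3L4 (69.2%), followed by ETV1 (72.5%), FOXA1 (80.5%) and GATA2 (80.9%). GRHL2 gave 96.9% of the NS level and was not called, and NR3C1 was close to absent. A gene was called where its FDR, the Benjamini-Hochberg adjusted p of edgeR's quasi-likelihood test over all genes tested, was under 0.01. At that threshold 17.4% of all 10160 genes tested were called lower and 17.8% higher, and the median log2 fold change was -0.46 over the 7 members and -0.015 over all genes. In vehicle alone 4 members were called lower, where 10.2% of 10677 genes were called lower and 11.5% higher. In DHT alone 6 members were called lower, where 10.9% of genes were called lower and 13.5% higher. The count in vehicle fell to 2 without NS-Veh replicate 3, 1 without SLIRP-Veh replicate 1 and 2 without SLIRP-Veh replicate 2. It was 1 with replicates 1 and 2 alone (FOXA1) and 1 with replicates 3 and 4 alone (HOXB13). Over all libraries, 5 members were called with replicates 1 and 2 alone and 5 with replicates 3 and 4 alone, and limma on the authors' normalized table called 3, namely FOXA1, HOXB13 and SPDEF. With DHT, 1 member, CREB3L4, was called higher in a comparison over both siRNAs that was chosen after seeing the data. In that comparison 2.69% of 10408 genes were called higher and 1.85% lower. Within either siRNA no member was called with DHT.

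Levels are given in CPM, a gene's counts scaled to 1000000 counts per library with TMM-normalized library sizes, and values for 4 libraries follow the order of the replicate numbers. The 16 libraries held between 436220 and 1689123 counts. SLIRP, listed under its older symbol C14orf156, lay between 44.4 and 62.9 CPM in the 8 NS libraries and between 1.42 and 8.04 CPM in the 8 SLIRP siRNA libraries. The study had 2 biological replicates from each of 2 experiments, and which replicate numbers share an experiment is not given in the sources used here. The fold changes of the members, their counts of calls and the fold changes of the other genes named by rule were therefore also computed with replicates 1 and 2 alone and with replicates 3 and 4 alone. In bulk RNA, fewer cells with a transcript and less of it per cell cannot be told apart. All 10 luminal markers were detected, while the basal markers TP63 and KRT5 and the neuroendocrine markers CHGB and INSM1 had 0 counts in all libraries. The 5 basal markers summed to 0 to 1.52 CPM in NS libraries and 0 to 3.09 CPM in SLIRP siRNA libraries, and the 8 stromal and immune markers to 15.5 to 29.5 and 7.09 to 32.1 CPM. The 7 neuroendocrine markers summed to 17.7 to 32.8 CPM in NS libraries and 30.1 to 41.0 CPM in SLIRP siRNA libraries, and the 1 of them with enough counts to test, the enolase gene ENO2, was not called with SLIRP siRNA (log2 fold change 0.26 ± 0.15 (SE, edgeR FDR 0.157)). The part of such markers in the results was not tested.

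FOXA1 was the most abundant member when counts were set against the length of the exons. Its mean level over the 16 libraries was 172 ± 22.9 CPM per kb (SD, n = 16). HOXB13 followed at 95.3 ± 24.3 CPM per kb and GATA2 at 61.8 ± 8.46 CPM per kb. FOXA1 was above HOXB13 in 16 of 16 libraries, HOXB13 above GATA2 in 15, and GATA2 above SPDEF in 16. SPDEF at 37.8 ± 10.1, CREB3L4 at 36.5 ± 10.2 and GRHL2 at 34.3 ± 3.02 CPM per kb could not be put in order beyond their spread, since SPDEF was above CREB3L4 in 8 of 16 libraries and CREB3L4 above GRHL2 in 9. ETV1 at 26.7 ± 5.84 CPM per kb lay below GRHL2 in 14 of 16 libraries, and NR3C1 was lowest at 0.0620 ± 0.0948 CPM per kb.

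In the plot of family levels, FOXA1, HOXB13, GATA2, ETV1 and CREB3L4 were each the most abundant of their own small family. FOXA2 and FOXA3 had 0 counts in all 16 libraries, and GATA3 likewise. GATA6 was the next GATA factor at 1.54 ± 0.618 CPM per kb (SD, n = 16), against 61.8 ± 8.46 for GATA2. HOXC13 reached 9.93 ± 3.55 CPM per kb beside HOXB13, and ETV4 and ETV5, the closest relatives of ETV1, had 2 and 6 counts in all libraries together. The exceptions were SPDEF, below the related ETS factor EHF at 74.9 ± 6.64 CPM per kb, and GRHL2, below UBP1 at 52.7 ± 5.52 CPM per kb. UBP1 is a widely expressed factor of the wider grainyhead family. CREB3 at 21.0 ± 4.76 CPM per kb accompanied CREB3L4. Among the steroid receptors, NR3C2, the mineralocorticoid receptor, measured 5.94 ± 2.19 CPM per kb and PGR, the progesterone receptor, 0.228 ± 0.152 CPM per kb.

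**Figure D1:**
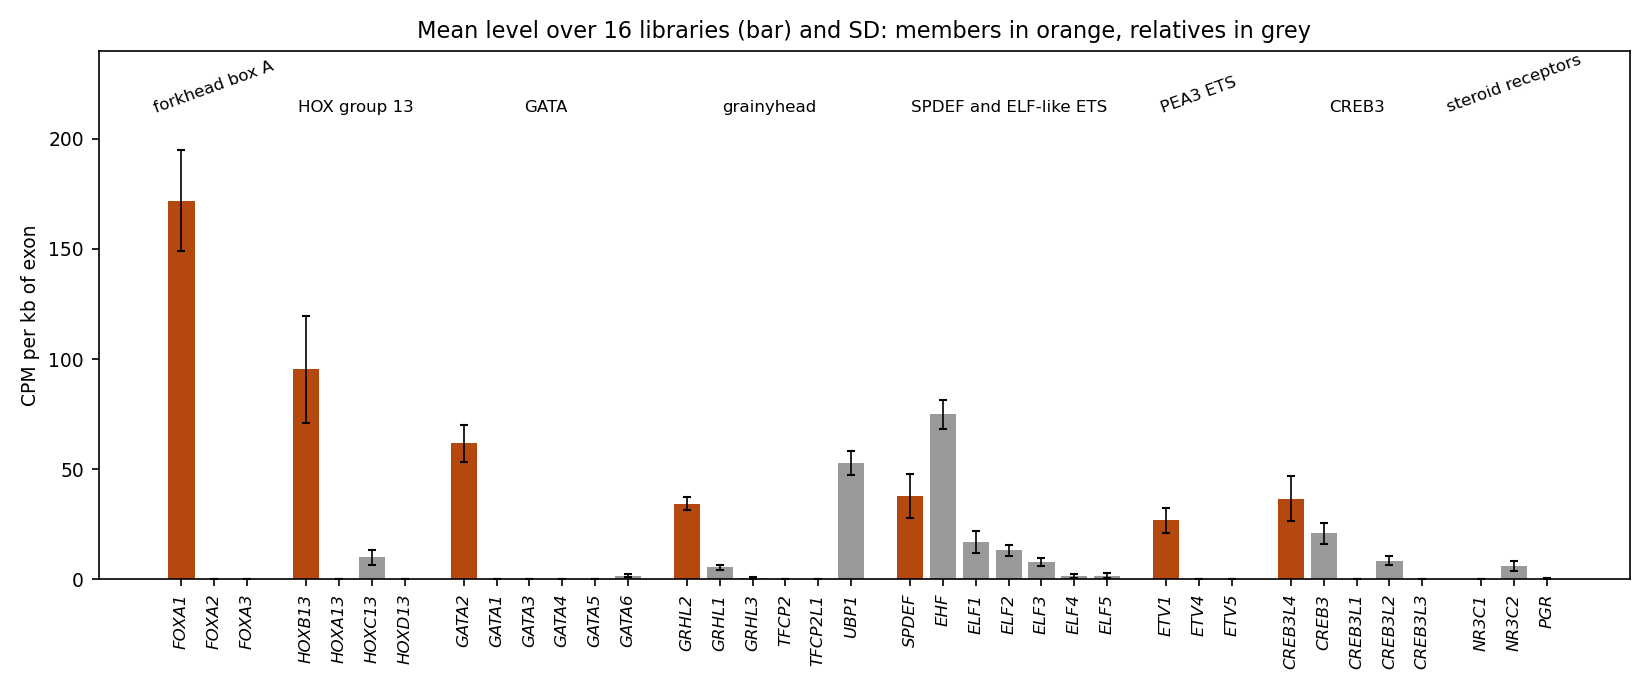
Mean level of each member (orange) and of its 29 relatives (grey) in CPM per kb of exon over the 16 libraries, with SD as error bars, grouped by gene family. FOXA1, HOXB13, GATA2, ETV1 and CREB3L4 stand above all their relatives shown, whereas EHF stands above SPDEF and UBP1 above GRHL2.

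FOXA1 (chromosome 14, 38058757 to 38065264, minus strand, hg19) overlaps TTC6 on the opposite strand. FOXA1 measured 770.3, 702, 692 and 614 CPM in NS-Veh and 633, 637, 675 and 617 CPM in NS-1nM DHT. With SLIRP siRNA it measured 538, 611, 530.5 and 573 CPM in SLIRP-Veh and 472, 530.3, 528 and 531 CPM in SLIRP-1nM DHT. All 8 SLIRP siRNA libraries lay below all 8 NS libraries. The share of all genes whose groups separate in this way, here or for the members below, was not computed. The log2 fold change with SLIRP siRNA was -0.31 ± 0.061 (SE, edgeR FDR 9.26e-05), with the smallest standard error of the 7 members tested. It was -0.30 ± 0.077 (SE, edgeR FDR 0.00273) in vehicle, where 10.2% of 10677 genes were called lower and 11.5% higher. In DHT it was -0.31 ± 0.076 (SE, edgeR FDR 0.00130), where 10.9% were called lower and 13.5% higher. Leaving out NS-Veh replicate 1, SLIRP-Veh replicate 1 or SLIRP-Veh replicate 3 ended the call in vehicle, with edgeR FDR up to 0.0177.

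GATA2 (chromosome 3, 128198270 to 128212044, minus strand) overlaps the antisense gene GATA2-AS1. GATA2 measured 305, 282, 365 and 344 CPM in NS-Veh and 315, 347, 303 and 333 CPM in NS-1nM DHT. After knockdown the values were 303, 248, 287 and 286 CPM in SLIRP-Veh and 269, 281, 237 and 219.5 CPM in SLIRP-1nM DHT. The SLIRP-1nM DHT libraries were all below the NS-1nM DHT libraries, whereas the vehicle groups overlapped. GATA2 changed by -0.31 ± 0.073 (SE, edgeR FDR 0.000843) on the log2 scale over all libraries and -0.38 ± 0.092 (SE, edgeR FDR 0.00111) in DHT. In vehicle it was -0.22 ± 0.093 (SE, edgeR FDR 0.0620) and was not called. With replicates 1 and 2 alone the value over all libraries was -0.20 and was not called (edgeR FDR 0.146).

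HOXB13 (chromosome 17, 46802125 to 46806112, minus strand) overlaps no annotated gene. HOXB13 measured 305, 322, 397 and 409.8 CPM in NS-Veh and 339.5, 327, 333 and 373 CPM in NS-1nM DHT. The SLIRP siRNA libraries gave 249, 222, 273 and 266 CPM in SLIRP-Veh and 189.6, 153, 226 and 249 CPM in SLIRP-1nM DHT. The groups did not overlap, and the 8 NS libraries ranged from 305 to 409.8 CPM against 153 to 273 CPM in the 8 SLIRP siRNA libraries. HOXB13 changed by -0.63 ± 0.089 (SE, edgeR FDR 8.06e-07) on the log2 scale, with -0.54 ± 0.11 (SE, edgeR FDR 0.000131) in vehicle and -0.72 ± 0.11 (SE, edgeR FDR 1.24e-06) in DHT. These calls were kept in each of the 16 fits that left out 1 library. In NS-Veh, replicates 3 and 4 were above replicates 1 and 2, and with replicates 1 and 2 alone the vehicle value was -0.37 and was not called (edgeR FDR 0.0358).

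SPDEF (chromosome 6, 34505579 to 34524110, minus strand) overlaps no annotated gene. SPDEF measured 61.1, 83.4, 103 and 87.1 CPM in NS-Veh and 96.0, 78.3, 97.9 and 87.6 CPM in NS-1nM DHT. With SLIRP siRNA it stood at 53.3, 50.9, 67.8 and 76.3 CPM in SLIRP-Veh and 34.0, 58.1, 61.1 and 62.7 CPM in SLIRP-1nM DHT. SLIRP-1nM DHT replicate 1 was the lowest of all 16 libraries, and the NS and SLIRP siRNA groups were separate in DHT but overlapped in vehicle. SPDEF changed by -0.60 ± 0.12 (SE, edgeR FDR 8.8e-05) on the log2 scale over all libraries and -0.70 ± 0.16 (SE, edgeR FDR 0.000622) in DHT. In vehicle it was -0.50 ± 0.16 (SE, edgeR FDR 0.0160) and missed the threshold.

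CREB3L4 (chromosome 1, 153940010 to 153946837, plus strand) was the only tested member whose groups of 4 separated with siRNA and with hormone alike. They separated by siRNA within vehicle and within DHT, and by DHT within either siRNA. Over 8 against 8 libraries the siRNA groups overlapped, with 5 SLIRP siRNA libraries below all NS libraries. The share of all genes with such a pattern was not computed. CREB3L4 measured 68.9, 64.8, 89.8 and 67.9 CPM in NS-Veh and 118, 98.8, 96.2 and 94.1 CPM in NS-1nM DHT. In the SLIRP siRNA cells it measured 52.2, 38.6, 58.5 and 52.0 CPM in SLIRP-Veh and 69.3, 63.8, 86.3 and 74.8 CPM in SLIRP-1nM DHT. SLIRP-Veh was the lowest group and NS-1nM DHT the highest, and the 4 NS-Veh and the 4 SLIRP-1nM DHT values covered nearly the same range. The log2 fold change with SLIRP siRNA was -0.53 ± 0.13 (SE, edgeR FDR 0.00113), with -0.56 ± 0.15 (SE, edgeR FDR 0.00348) in vehicle and -0.44 ± 0.13 (SE, edgeR FDR 0.00775) in DHT. The call over all libraries was kept in each of 16 fits that left out 1 library, but with replicates 3 and 4 alone the value was -0.35 (edgeR FDR 0.0821). Within vehicle the call was lost in 4 such fits (without NS-Veh replicate 3 or SLIRP-Veh replicate 1, 2 or 4), with edgeR FDR up to 0.0733. In DHT it was lost in 6 (without NS-1nM DHT replicate 1, 2 or 3 or SLIRP-1nM DHT replicate 1, 2 or 4), with edgeR FDR up to 0.0315. DESeq2 gave an adjusted p of 0.0182 in DHT.

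The exons of CREB3L4 share 101 bases with SLC39A1 and 93 bases with JTB, both on the opposite strand, and whether the counting used strand is not given. These bases are 4.94% and 4.55% of the exon bases of CREB3L4. JTB gave a log2 fold change of -0.30 ± 0.10 (SE, edgeR FDR 0.0175) with SLIRP siRNA and SLC39A1 0.095 ± 0.087 (SE, edgeR FDR 0.393), neither called. Their part in the CREB3L4 values was not tested.

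ETV1 (chromosome 7, 13930854 to 14031050, minus strand) lies on chromosome 7 in the reference, while in LNCaP a copy is known to sit beside FOXA1 on chromosome 14. ETV1 measured 181, 197, 221 and 239.7 CPM in NS-Veh and 223, 249.97, 291 and 302 CPM in NS-1nM DHT. After SLIRP knockdown ETV1 measured 137, 167, 187 and 176 CPM in SLIRP-Veh and 182, 164, 218 and 189 CPM in SLIRP-1nM DHT. In NS-1nM DHT the values of replicates 3 and 4 were the highest of the 16 libraries, and the SLIRP siRNA libraries lay below the NS libraries in DHT without overlap. The log2 fold change was -0.46 ± 0.095 (SE, edgeR FDR 0.000165), with -0.39 ± 0.12 (SE, edgeR FDR 0.00842) in vehicle and -0.50 ± 0.11 (SE, edgeR FDR 0.000362) in DHT. In vehicle the groups overlapped, and the call was lost in 6 of 16 fits that left out 1 library (NS-1nM DHT replicate 3, NS-Veh replicate 3 or 4, or SLIRP-Veh replicate 1, 2 or 4), with edgeR FDR up to 0.0852. DESeq2 gave an adjusted p of 0.0182 for ETV1 in vehicle. Of the 9 listed neighbours of ETV1 and FOXA1, 2 were tested and neither was called in this comparison. They were DGKB, a diacylglycerol kinase gene beside ETV1 on chromosome 7, at -0.23 ± 0.17 (SE, edgeR FDR 0.291), and MIPOL1, beside FOXA1 on chromosome 14, at -0.27 ± 0.11 (SE, edgeR FDR 0.0344).

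GRHL2 (chromosome 8, 102504667 to 102681954, plus strand) varied least between groups. GRHL2 measured 205, 188, 183 and 169 CPM in NS-Veh and 205, 199, 163 and 164 CPM in NS-1nM DHT. The 8 SLIRP siRNA libraries gave 185, 185, 159.5 and 173 CPM in SLIRP-Veh and 166, 206, 187 and 169.7 CPM in SLIRP-1nM DHT. All 4 groups overlapped. The log2 fold change was -0.046 ± 0.074 (SE, edgeR FDR 0.641), with a 95% interval of -0.19 to 0.099, and its sign turned with replicates 3 and 4 alone (0.027). It was -0.055 ± 0.10 (SE, edgeR FDR 0.729) in vehicle and -0.0088 ± 0.1 (SE, edgeR FDR 0.957) in DHT.

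NR3C1 (chromosome 5, 142657496 to 142815077, minus strand) had 9 counts in all 16 libraries together. SLIRP-Veh held 6 of them, NS-Veh 2, SLIRP-1nM DHT 1 and NS-1nM DHT 0. The 8 vehicle libraries gave 1.01 CPM without normalization (exact Poisson 95% interval 0.435 to 1.98) and the 8 DHT libraries 0.117 (0.00295 to 0.65). With SLIRP siRNA the 8 libraries gave 0.876 (0.352 to 1.8) and with NS 0.234 (0.0284 to 0.847). The 0 counts in NS-1nM DHT allow up to 0.767 CPM by the same exact Poisson 95% interval. Taking 3 counts as the limit, they allow up to 0.624 CPM. These intervals and limits cover counting error only, and NR3C1 was too low to enter any test.

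**Figure D2:**
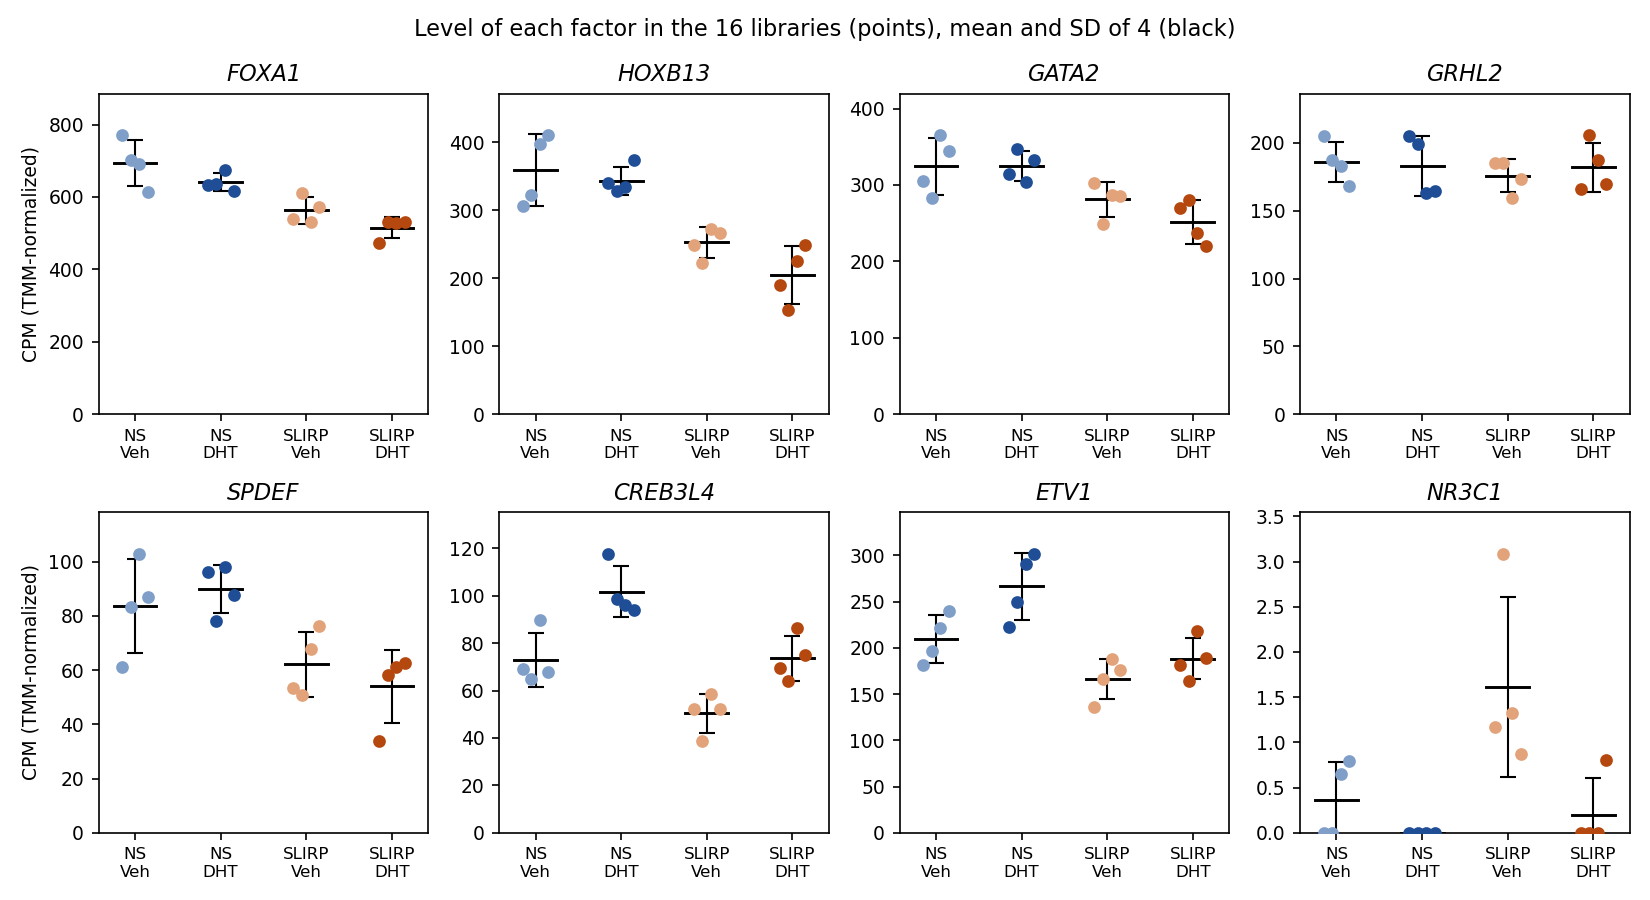
CPM (TMM-normalized) of each of the 8 members by group, with 1 point per library in the order of replicate numbers, the mean as a black line and the SD as the error bar (n = 4). The SLIRP siRNA libraries lie below the NS libraries without overlap for FOXA1 and HOXB13, and GRHL2 overlaps in all groups. CREB3L4 is higher in DHT than in vehicle with either siRNA. The share of all genes without overlap was not computed.

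Promoters of the called members were read from the RefSeq table (GRCh38.p14, 250 bases before to 50 after a gene's start), which held 11 windows for 5 of the 6, with no entry used for HOXB13. They were read because these genes were called lower in the same comparison. Those of FOXA1 (the most abundant member), CREB3L4, and ETV1 (the member with a word searched for) are printed here 5′ to 3′. CREB3L4 was called with SLIRP siRNA and, only in the comparison over both siRNAs added after seeing the data, with DHT. The hormone response word TGTTCT is in capitals where it occurs. The FOXA1 window is chr14:37595200-37595499 on the minus strand, the CREB3L4 window chr1:153968000-153968299 on the plus strand and the ETV1 window chr7:13990653-13990952 on the minus strand.
FOXA1: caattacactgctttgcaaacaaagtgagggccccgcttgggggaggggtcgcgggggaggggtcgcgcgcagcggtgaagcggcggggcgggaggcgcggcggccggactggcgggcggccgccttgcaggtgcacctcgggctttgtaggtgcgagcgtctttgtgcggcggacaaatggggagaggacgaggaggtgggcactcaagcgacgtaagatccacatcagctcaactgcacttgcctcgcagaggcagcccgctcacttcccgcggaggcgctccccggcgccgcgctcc
CREB3L4: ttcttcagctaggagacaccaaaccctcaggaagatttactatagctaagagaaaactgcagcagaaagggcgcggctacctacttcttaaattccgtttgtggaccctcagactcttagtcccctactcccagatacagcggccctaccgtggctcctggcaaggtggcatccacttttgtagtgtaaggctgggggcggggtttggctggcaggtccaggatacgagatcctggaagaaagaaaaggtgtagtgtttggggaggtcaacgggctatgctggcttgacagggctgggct
ETV1: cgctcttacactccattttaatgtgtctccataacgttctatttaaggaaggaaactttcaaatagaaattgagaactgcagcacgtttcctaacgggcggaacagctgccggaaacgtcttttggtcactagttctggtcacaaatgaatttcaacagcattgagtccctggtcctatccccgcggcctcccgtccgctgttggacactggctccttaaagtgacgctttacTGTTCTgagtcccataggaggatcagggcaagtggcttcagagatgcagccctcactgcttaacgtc
G and C made up 69.3% of the FOXA1 window, 53.3% of the CREB3L4 window and 48.7% of the ETV1 window, against a median of 58.7% over all promoters of the table.

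Both strands were searched for the hormone response word AGAACA, which reads as TGTTCT on the opposite strand, for the forkhead word TGTTTAC, for the GATA word AGATAA and for the HOXB13 word CCAATAAA. Of the 11 windows, 2 held a word, both of them ETV1 windows that overlap almost completely and share the same TGTTCT, 17 bases before the start in the window printed. Among all 35116 promoters of the table, 14.8% held the hormone response word, 3.42% the forkhead word, 10.3% the GATA word and 0.934% the HOXB13 word. A match says only that these letters occur there.

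With DHT no member was called within NS cells, where 0.869% of 10360 genes were called higher and 0.463% lower. The androgen target KLK3, the gene for prostate-specific antigen, gave 2.68 ± 0.14 (SE, edgeR FDR 6.44e-15) in the same libraries. CREB3L4 was higher in all 4 NS-1nM DHT libraries than in any NS-Veh library, at 0.42 ± 0.13 (SE, edgeR FDR 0.0704). ETV1 gave 0.31 ± 0.098 (SE, edgeR FDR 0.0782), with 3 of the 4 NS-1nM DHT values above all NS-Veh values. FOXA1 at -0.10 ± 0.07 (SE, edgeR FDR 0.572) and HOXB13 at -0.1 ± 0.085 (SE, edgeR FDR 0.669) were also not called. GATA2 gave -0.029 ± 0.082 (SE, edgeR FDR 0.926), SPDEF 0.026 ± 0.13 (SE, edgeR FDR 0.960) and GRHL2 -0.002 ± 0.097 (SE, edgeR FDR 0.998).

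In SLIRP siRNA cells no member was called with DHT either, with 0.702% of 10677 genes called higher and 0.45% lower (75 and 48 genes, against 52 and 74 with upper-quartile normalization). CREB3L4 again separated without overlap, at 0.54 ± 0.15 (SE, edgeR FDR 0.0345). HOXB13 gave -0.28 ± 0.11 (SE, edgeR FDR 0.185) and ETV1 0.21 ± 0.12 (SE, edgeR FDR 0.391). Over both siRNAs, with siRNA as a covariate, 2.69% of 10408 genes were called higher with DHT and 1.85% lower. CREB3L4 rose to 139% of its vehicle level, a log2 fold change of 0.47 ± 0.098 (SE, edgeR FDR 0.00108), and kept this call in each of 16 fits without 1 library. With replicates 1 and 2 alone its value was 0.57 (edgeR FDR 0.0254) and with 3 and 4 alone 0.37 (edgeR FDR 0.0603). ETV1 at 0.27 ± 0.078 (SE, edgeR FDR 0.0233) was not called. The overlapping genes SLC39A1 and JTB gave 0.20 ± 0.081 (SE, edgeR FDR 0.121) and 0.18 ± 0.096 (SE, edgeR FDR 0.273) in this comparison.

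Whether the response to DHT differed between the siRNAs was tested as the difference of both responses. No gene was called among 10677 tested (0%), by edgeR or by DESeq2, with 391 at an unadjusted p under 0.05 by edgeR and 197 by DESeq2. Chance alone would give about 1 gene in 20 at that p, which is more than either count. The lack of calls does not show that the responses were equal. Among the members the largest differences were -0.20 ± 0.23 (SE, edgeR FDR 1.00) for SPDEF, -0.18 ± 0.15 (SE, edgeR FDR 1.00) for HOXB13 and -0.16 ± 0.13 (SE, edgeR FDR 1.00) for GATA2. For CREB3L4 the difference was 0.12, with a 95% interval of -0.27 to 0.52. For ETV1 the interval was -0.42 to 0.21 and for FOXA1 -0.23 to 0.20.

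**Figure D3:**
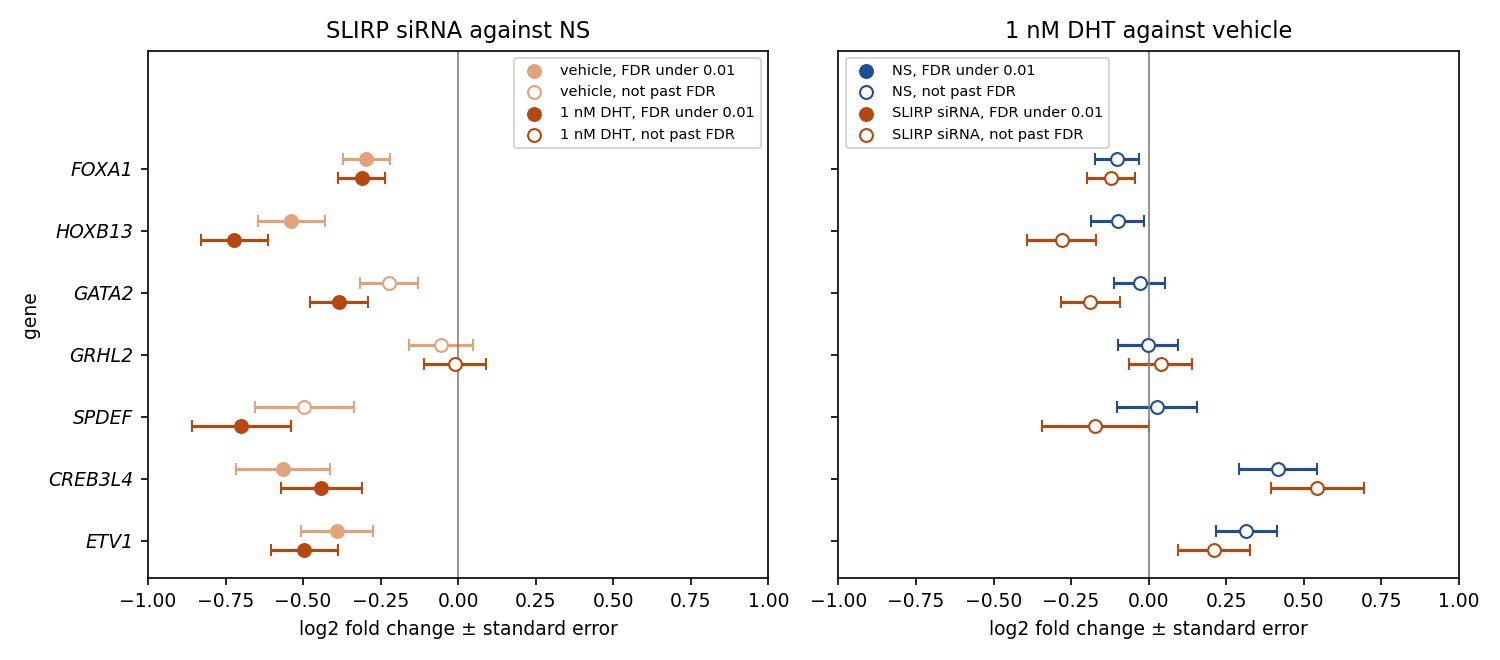
Log2 fold changes with their standard errors for the 7 tested members, SLIRP siRNA against NS (left, in vehicle and in 1 nM DHT) and DHT against vehicle (right, in NS and in SLIRP siRNA cells), filled where the edgeR FDR was under 0.01. With SLIRP siRNA, 4 members in vehicle and 6 in DHT are filled and all values lie below 0 (that of GRHL2 in DHT, not called, turned with replicates 3 and 4 alone), while no member is filled with DHT and CREB3L4 and ETV1 lie above 0.

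Of the 29 close relatives of the members, 10 were tested. With SLIRP siRNA 3 of them were called higher and 0 lower, with a median log2 fold change of -0.054. Over all 10160 genes tested in this comparison 17.8% were called higher and 17.4% lower. The same shares apply to the lists below in this comparison. NR3C2, the mineralocorticoid receptor, rose by 1.03 ± 0.14 (SE, edgeR FDR 2.6e-07) on the log2 scale. CREB3L2, a membrane-bound relative of CREB3L4, rose by 0.60 ± 0.099 (SE, edgeR FDR 8.71e-06), and ELF3, an epithelial ETS factor, by 0.48 ± 0.14 (SE, edgeR FDR 0.00423). The ELF3 call was lost without NS-1nM DHT replicate 3 or 4, with edgeR FDR up to 0.0144. EHF gave -0.025 ± 0.067 (SE, edgeR FDR 0.785) and CREB3 -0.24 ± 0.15 (SE, edgeR FDR 0.209). PGR, with 52 counts in all, was not tested.

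Of 17 other nuclear receptors tested, 2 were called higher and 5 lower, with a median of -0.17. THRB, a thyroid hormone receptor, rose by 0.58 ± 0.098 (SE, edgeR FDR 1.22e-05) and VDR, the vitamin D receptor, by 0.47 ± 0.14 (SE, edgeR FDR 0.00594). VDR lost its call in 6 of 16 fits without 1 library (NS-1nM DHT replicate 4, NS-Veh replicate 2, SLIRP-1nM DHT replicate 2 or 4, SLIRP-Veh replicate 1 or 2), with edgeR FDR up to 0.0184. NR2F6, an orphan receptor, changed by -0.83 ± 0.13 (SE, edgeR FDR 3.41e-06), the oxysterol receptor NR1H2 by -0.79 ± 0.17 (SE, edgeR FDR 0.000308) and the haem-binding clock repressor NR1D2 by -0.61 ± 0.11 (SE, edgeR FDR 1.76e-05).

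Among 23 tested factors known as partners of the members or of other factors in luminal cells, 2 were called higher and 2 lower, with a median of -0.12. SOX4, a high-mobility-group factor, rose by 0.75 ± 0.094 (SE, edgeR FDR 1.02e-07) and NFIC, a nuclear factor I protein, by 0.45 ± 0.1 (SE, edgeR FDR 0.000404). NFIA, of the same family, changed by -0.55 ± 0.078 (SE, edgeR FDR 8.43e-07). With DHT in NS cells 1 of the 23 was called higher and 3 lower, against 0.869% and 0.463% of 10360 genes. SOX4 changed by -0.40 ± 0.086 (SE, edgeR FDR 0.00513) and the corepressor TLE3 by -0.37 ± 0.082 (SE, edgeR FDR 0.00826). Each of these calls was lost in 6 of 8 fits without 1 library, with edgeR FDR up to 0.0428. SOX4 kept its call without NS-1nM DHT replicate 4 or NS-Veh replicate 3 and TLE3 without NS-1nM DHT replicate 2 or 4.

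Of 9 tested genes of the epithelial programme linked to GRHL2, 2 were called higher and 2 lower with SLIRP siRNA. These counts are near the shares over all genes, 17.8% higher and 17.4% lower. The adhesion gene EPCAM rose by 0.52 ± 0.087 (SE, edgeR FDR 1.11e-05) and the receptor ERBB3 by 0.46 ± 0.071 (SE, edgeR FDR 3.17e-06). The splicing factor ESRP1 changed by -0.32 ± 0.09 (SE, edgeR FDR 0.00411) and E-cadherin, CDH1, by -0.25 ± 0.054 (SE, edgeR FDR 0.00036). ESRP1 lost its call without NS-1nM DHT replicate 4, NS-Veh replicate 3 or SLIRP-1nM DHT replicate 3, with edgeR FDR up to 0.0215. None of the 8 tested with DHT in NS cells was called.

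Among 8 tested genes that androgen and glucocorticoid share as targets, 1 was called higher and 1 lower with SLIRP siRNA. FKBP5, a co-chaperone of steroid receptors, rose by 0.58 ± 0.13 (SE, edgeR FDR 0.000354), and KLF9, a zinc finger factor, changed by -0.79 ± 0.12 (SE, edgeR FDR 2.06e-06). With DHT in NS cells FKBP5 rose by 0.56 ± 0.12 (SE, edgeR FDR 0.00513), a call kept without NS-Veh replicate 1 and lost in the other 7 of 8 fits without 1 library, with edgeR FDR up to 0.0403. DESeq2 did not call TLE3 or FKBP5 with DHT. Of the 10 luminal markers, 4 were called lower with SLIRP siRNA and 0 higher over all 16 libraries, in a fit without a term for DHT, with a median of -0.45. Within vehicle 6 were called lower and 1 higher, and within DHT 6 lower and 3 higher. Over all genes 10.2% were called lower and 11.5% higher in vehicle, and 10.9% and 13.5% in DHT. KLK3 rose with SLIRP siRNA by 1.10 ± 0.16 (SE, edgeR FDR 1.09e-06) in vehicle and 0.39 ± 0.1 (SE, edgeR FDR 0.0019) in DHT. KLK2 and TMPRSS2 were the others called higher in DHT, and reads can be split between the close paralogs KLK2 and KLK3. ACPP, prostatic acid phosphatase, changed by -1.33 ± 0.089 (SE, edgeR FDR 3.25e-13), STEAP2, a metalloreductase, by -1.13 ± 0.069 (SE, edgeR FDR 4.15e-14) and FOLH1, prostate-specific membrane antigen, by -0.68 ± 0.064 (SE, edgeR FDR 4.81e-10). The summed level of the 10 markers ran from 5794 to 6804 CPM in NS libraries and from 3640.4 to 4258 CPM in SLIRP siRNA libraries. With DHT in NS cells 5 of the markers were called higher, against 0.869% of 10360 genes. Among them were TMPRSS2, a membrane protease gene, at 0.69 ± 0.12 (SE, edgeR FDR 0.00038) and SLC45A3 at 1.20 ± 0.15 (SE, edgeR FDR 2.38e-06).

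With replicates 1 and 2 alone, the calls with SLIRP siRNA of ELF3, VDR, NR1H2, CDH1, ESRP1 and EPCAM were lost. With replicates 3 and 4 alone, those of ELF3, VDR, NFIC, ESRP1 and FKBP5 were lost. Limma lost those of ELF3, VDR, NR1H2 and NFIC at either pseudocount, and that of ESRP1 at pseudocount 1. Of the genes named with DHT in NS cells, TLE3 and FKBP5 lost their calls with either pair of replicates, and SOX4 (-0.28, edgeR FDR 0.112) and TMPRSS2 with replicates 3 and 4. TMPRSS2 gave 0.42 (edgeR FDR 0.0529) with replicates 3 and 4 alone. Limma called none of SOX4, TLE3, FKBP5, KLK3, TMPRSS2 and SLC45A3 with DHT.

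**Figure D4:**
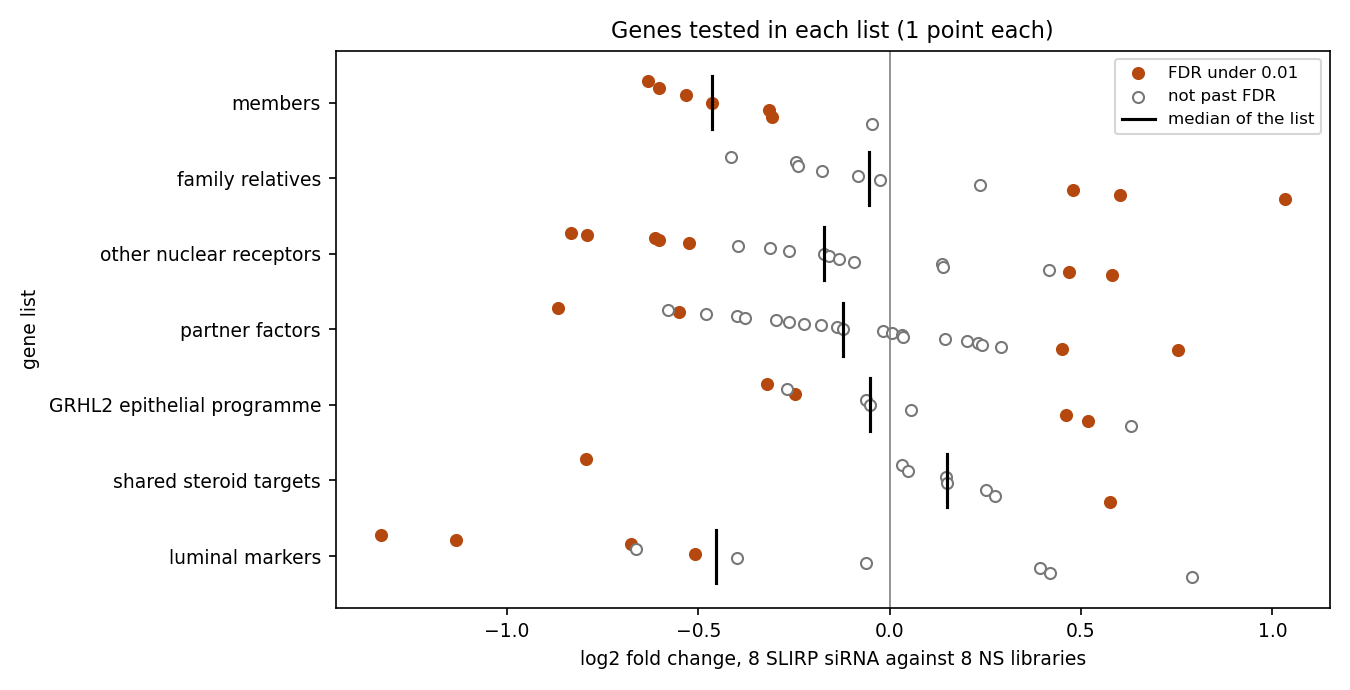
Log2 fold changes in the comparison of 8 SLIRP siRNA with 8 NS libraries, 1 point per tested gene in each list, filled where the edgeR FDR was under 0.01, with the median of the list as a black line. Of the 7 members 6 are filled and lie below 0, with GRHL2 close to 0, and their median is -0.46. Of the 10 luminal markers 4 are filled, all below 0, with a median of -0.45. The relatives, other nuclear receptors, partner factors, GRHL2-linked genes and shared steroid targets spread over both sides.

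For the members whose group means spanned over 0.5 on the log2 scale, likeness was measured as the root mean square difference of centred log2 CPM over the 16 libraries, among the 6961 genes whose mean count reached 30. HOXB13 was most like PVRL2 (0.128), a nectin adhesion gene, and NDOR1 (0.136). SPDEF was most like ANGEL1 (0.183) and NELF (0.188), and HOXB13 stood at rank 33 in its order. CREB3L4 was most like TPD52 (0.136), tumour protein D52. ETV1 stood at rank 74 in the order of CREB3L4. ETV1 was most like EI24 (0.124) and FADS2 (0.146), a fatty acid desaturase. These values describe the same 16 libraries from which the levels above were taken.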

How the data were processed

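RNA from 16 LNCaP libraries was sequenced as single 50-base reads. The authors deposited estimated counts per gene on hg19, which were rounded here to whole numbers. The submitters' notes name CASAVA and RSEM without versions, and strand and annotation are not given in the sources used here. They also deposited a normalized table, used here as a score on a linear scale. 29 rows without a symbol (0.0305% to 0.042% of a library) were left out.

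Counts were tested with R 4.3.3 and edgeR 4.0.16 (TMM, filterByExpr, glmQLFit, glmQLFTest, Benjamini-Hochberg FDR under 0.01 over all genes tested). SLIRP siRNA was compared with NS over 8 against 8 libraries and DHT with vehicle over the 8 NS libraries. The other comparisons were contrasts of a 4-group model over 16 libraries, and DHT over both siRNAs, with siRNA as a covariate, was added after seeing the data. Standard errors are the log2 fold change over the square root of its F statistic. CPM used TMM library sizes, and CPM per kb the exons of GENCODE protein-coding transcripts. Log2 CPM for likeness used a prior count of 2.

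Alternatives were DESeq2 1.42.0, upper-quartile and RLE normalization, other low-count filters, an FDR of 0.05, the replicate block, DHT as a covariate or only the groups compared, limma 3.58.1 on log2 of the normalized table (pseudocount 1 or 0.1), replicates 1 and 2 or 3 and 4 alone, and leaving out each library. The edgeR and limma fits were tested on simulated data. The libraries hold 436220 to 1689123 counts, which limits low genes, and 3 counts were taken as the limit that a count of 0 allows.

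Members and lists were chosen with earlier results of these data known. From each list, up to 3 genes per direction with the largest change at FDR 0.01 and a mean count of at least 30 were named for SLIRP siRNA, and all such genes for DHT in NS cells, with NR3C2 and PGR in any case. A few genes that these rules name or count are not reported here by name. KLK3, ENO2 and the other relatives, neighbours and overlapping genes given with values were chosen after their values were seen. Replicates of a group differed by more than sampling noise (chi-square per degree of freedom 1.21 to 2.26). P-values weigh a difference against the spread between these libraries. In the main fits the libraries were treated as independent, though the study drew them from 2 experiments. The p-values may therefore be too small or too large, and which of these holds was not tested. Same-numbered libraries correlated at 0.0003 to 0.202 over 6961 genes, with 6 of 16 pairs over 0.1, so the numbers were not taken as pairs. Promoters came from RefSeq on GRCh38.p14, and figures from matplotlib 3.10.9.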

Additional observations from a re-analysis of the deposited data

Results flagged for a closer look

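In 28 groups of 4 libraries (7 members in 4 groups), 3 had a library far from the other 3 by Dixon's test at the 95% level, which chance flags in about 1 group of 20. FOXA1 in SLIRP-1nM DHT replicate 1 measured 472 CPM, against 528 to 531 CPM in the other 3 libraries of the group. SPDEF in the same library measured 34.0 CPM, against 58.1 to 62.7 CPM. CREB3L4 in NS-Veh replicate 3 measured 89.8 CPM, against 64.8 to 68.9 CPM. Without SLIRP-1nM DHT replicate 1, the calls of FOXA1 and SPDEF with SLIRP siRNA in DHT were kept. Without NS-Veh replicate 3, CREB3L4 lost its call with SLIRP siRNA in vehicle, at -0.40 (edgeR FDR 0.0733).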

How the results depend on the processing

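Of the 6 calls with SLIRP siRNA over all libraries, all were kept with DESeq2, upper-quartile and RLE normalization, both other low-count filters, an FDR of 0.05, the replicate block, DHT as a covariate and in each fit without 1 library (6 to 6). Limma on the normalized table called 3 at either pseudocount, 0 in vehicle, 2 in DHT and 0 with DHT over both siRNAs. In vehicle, replicates 1 and 2 alone called 1, replicates 3 and 4 alone 1, and fits without 1 library 1 to 5. With DHT over both siRNAs, an FDR of 0.05 called 2, no filter on low counts 2, replicates 1 and 2 alone 0 and replicates 3 and 4 alone 0. In SLIRP siRNA cells an FDR of 0.05 called 1 with DHT. Why the limma calls differ was not tested, and the replicate subsets hold fewer libraries.

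The replicate block called 1 member with DHT in NS cells (ETV1, 0.35, edgeR FDR 0.003) and 2 over both siRNAs (CREB3L4 and ETV1, the latter at 0.27, edgeR FDR 0.00188), and changed no other member's call. Over all genes it moved the calls with DHT from 138 to 272 in NS cells and from 123 to 250 in SLIRP siRNA cells. Of the 16 same-numbered pairs, 7 correlated best with their own number.

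Over all genes, calls with DHT in NS cells were 138, against 91 with DESeq2, 236 with no filter, 278 at an FDR of 0.05, 77 with replicates 1 and 2, 0 or 4 with limma at pseudocount 1 or 0.1, and 83 or 87 without NS-Veh replicate 1 or 2. In SLIRP siRNA cells they were 123, against 223 with no filter, 319 at an FDR of 0.05, 75 with either replicate subset, 12 or 17 with limma, and 73 without SLIRP-Veh replicate 1. Over both siRNAs they were 473, against 913 at an FDR of 0.05, 181 and 312 with the replicate subsets, and 98 or 102 with limma. With SLIRP siRNA they were 3578 over all libraries, against 2054 and 2126 with the replicate subsets, 2315 in vehicle, against 1298, 1469, and 1391 or 1399 with limma, and 2606 in DHT, against 1736, 1575, and 1369 or 1395 with limma. For the difference in response they were 0, against 13 with no filter, 1 and 3 with the subsets, and 1 or 2 with limma. In DHT, limma called 553 higher and 816 lower (1444 and 1162 with edgeR), with the median of all genes at -0.11 on the log2 scale.

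Signs turned only for values that were not called. With replicates 1 and 2 alone, DHT in NS cells gave 0.094 for HOXB13, 0.18 for GATA2 and 0.041 for GRHL2, and GRHL2 gave -0.024 in SLIRP siRNA cells. Over both siRNAs they gave 0.058 for GATA2 and 0.044 for SPDEF, and the difference in response was 0.00396 for FOXA1, -0.065 for GRHL2 and -0.23 for CREB3L4. With replicates 3 and 4 alone, GRHL2 gave 0.027 with SLIRP siRNA, 0.11 in DHT and -0.022 with DHT over both siRNAs, SPDEF -0.0497 with DHT in NS cells and HOXB13 a difference of 0.00972. Limma gave 0.028 for GATA2 with DHT in NS cells, -0.011 for GRHL2 in SLIRP siRNA cells and -0.00874 over both siRNAs, and differences of -0.00441 for GRHL2 and -0.016 or -0.015 for CREB3L4. GRHL2 also gave 0.0047 with at least 10 counts in every library (DHT in NS cells), -0.00312 and -0.00434 with upper-quartile normalization (SLIRP siRNA cells, both siRNAs), and 0.00487 and -0.00447 with the replicate block (SLIRP siRNA in DHT, DHT over both siRNAs).

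Without 1 library, DHT in NS cells gave -0.0776 to 0.0364 for GATA2, -0.0592 to 0.0473 for GRHL2 and -0.0627 to 0.17 for SPDEF. GRHL2 gave -0.0748 to 0.035 with SLIRP siRNA in DHT, and with DHT -0.0236 to 0.0741 in SLIRP siRNA cells and -0.0129 to 0.0383 over both siRNAs. SPDEF gave -0.114 to 0.00389 over both siRNAs. The difference in response gave -0.065 to 0.0162 for FOXA1, -0.0257 to 0.0943 for GRHL2 and -0.0399 to 0.186 for CREB3L4. Library totals limit what NR3C1 and other low genes can show.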
